A study of Homo sapiens with 2 samples.

Results

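Ribosome biogenesis genes were followed as a group of 42 genes, chosen by symbol, out of the 32738 genes listed in both matrices of the series. Each of the 42 symbols matched 1 row, and 41 of them were measured, meaning at least 10 UMIs per 1000000 (counts scaled to a common total, CPM) in at least 1 library. The exception was BOP1. The study profiled messenger RNA of single Nalm-6 cells, a human leukemia line of B-cell precursor type, by droplet sequencing with a unique molecular identifier (UMI) on each captured poly-A transcript. One library came from cells with a Tet-On construct for the ETV6-RUNX1 fusion (also called TEL-AML1 in the labels), the other from cells with a Tet-On luciferase construct (LUC control). Both cultures received 500 ng/ml doxycycline for 24 h, so the drug and the inducible system are shared by the groups and only the induced product differs by label. Whether either line is 1 clone was not given in the sources used here. Since each group is 1 library, no difference has a replicate check and none was tested; each interval below is an exact 95% interval that covers counting error only.

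A ribosome is built in the nucleolus. RNA polymerase I transcribes the precursor of ribosomal RNA, small nucleolar ribonucleoproteins (snoRNPs) guide its chemical modification, and large sets of assembly factors fold, cut and load it with ribosomal proteins to give the 40S and 60S subunits. The transcription factor MYC is a known activator of many of these genes, and growing cells spend much of their capacity on this pathway. The 42 genes were grouped by role as 3 RNA polymerase I subunits, 3 box C/D snoRNP proteins, 5 box H/ACA genes including the snoRNP chaperone NOLC1, 6 abundant or multifunctional nucleolar proteins, 12 genes of the small subunit processome and 40S maturation, and 13 genes of large subunit assembly. The small subunit genes were NOP14, WDR43, RRP9, RRP12, PNO1, NOB1, BYSL, TSR1, HEATR1, IMP3, IMP4 and DDX10. The large subunit genes were NOP16, BOP1, PES1, WDR12, RRS1, RRP1, RRP15, EBNA1BP2, MRTO4, PPAN, NIP7, FTSJ3 and DDX18.

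The kept cells, with at least 1000 genes and at most 10% mitochondrial UMIs, numbered 2267 with ETV6-RUNX1 and 1870 in the control, with 43941536 and 42762188 UMIs. Depth per cell differed, with medians of 19219 and 22535.5 UMIs. Measures across cells were therefore taken in cells thinned to 8000 UMIs each, which left 2085 and 1798 cells. The libraries shared 16 cell barcodes, 7 of them among kept cells. All 9 B-cell precursor markers were measured (summed 3250 and 4282 CPM), and markers of T and NK, erythroid and megakaryocyte, and epithelial and fibroblast cells were at 0.0910 to 6.27 CPM summed by list. The myeloid list was at 13.2 and 12.1 CPM, with CST3 as its 1 measured gene. The part of the lower B-cell precursor marker sum with ETV6-RUNX1 in the results below was not tested.

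The promoter windows of the group carried many copies of CACGTG, the E-box bound by MYC with its partner MAX. RefSeq promoter windows (GRCh38.p14, 250 bases before to 50 after a start) were matched for 36 of the 42 genes, and 15 of them (41.7%) held CACGTG, which reads the same on both strands. They were BYSL, DDX21, EBNA1BP2, FBL, GAR1, GNL3, IMP4, LYAR, MRTO4, NOP10, NOP14, PES1, PNO1, RRP9 and WDR43. BOP1, RRP12, NOLC1, NOP58, RRS1 and DDX18 were not matched. The same letters stood in 14.4% of 4642 measured genes with a window, in 8.77% of all 27305 genes, and in 7.26% of all 35116 windows. The share was 30.9% of 94 other ribosome biogenesis genes and 7.46% of 67 ribosomal protein genes. Most of these genes had a match close to the start. In 14 of the 36 genes (38.9%) a match began within 50 bases of it, against 6.46% of measured genes and 21.3% of the other biogenesis genes. Among genes with any match these were 14 of 15, against 300 of 668 measured genes. The distance was chosen after the positions were seen. Since windows end 50 bases after the start, every match after it falls within this distance. The related letters CACGCG (or CGCGTG on the other strand) were found in 33.3% of the 36 genes and 25.6% of measured genes, and CATGTG (or CACATG) in 2.78% and 8.90%.

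The sites shown here were picked and do not reflect the shares of genes. The first 5 belong to genes higher in cells with more MYC UMIs, with whole intervals above 0 in both libraries (below), and the last 2 to genes that were not. The other genes with CACGTG are not shown, and none of them had such intervals in both libraries. NPM1, NOP16, NOB1 and POLR1A had such intervals and a matched window without CACGTG. Each window is given 5′ to 3′ on the gene's strand, 30 bases long, with CACGTG in capitals.
DDX21, 31 bases before the start (chr10:68956604-68956633, plus strand): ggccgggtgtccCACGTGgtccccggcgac
LYAR, 64 bases before the start (chr4:4290068-4290097, minus strand): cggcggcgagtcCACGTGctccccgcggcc
GAR1, 31 bases after the start (chr4:109815781-109815810, plus strand): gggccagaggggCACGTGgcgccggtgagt
PNO1, 9 bases after the start (chr2:68157885-68157914, plus strand): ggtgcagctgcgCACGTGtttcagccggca
WDR43, 3 bases after the start (chr2:28894658-28894687, plus strand): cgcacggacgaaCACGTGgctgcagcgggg
FBL, 6 bases after the start (chr19:39846356-39846385, minus strand): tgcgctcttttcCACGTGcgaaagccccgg
NOP10, 11 bases before the start (chr15:34343130-34343159, minus strand): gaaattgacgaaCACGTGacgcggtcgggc
A match of letters is a description of sequence, and binding was not measured here.

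Together the 42 genes made up 0.812% of all UMIs with ETV6-RUNX1 and 0.877% in the control, or 8120 and 8772 CPM. UMIs from the 3' end count transcripts and not transcript length, so levels of genes are on a common scale apart from capture. The 6 abundant or multifunctional nucleolar proteins (NPM1, NCL, C1QBP, DDX21, LYAR and GNL3) held 52.1% and 53.2% of the group's UMIs. NPM1, a histone and ribosome chaperone mutated in other leukemias, was alone at 2230 and 2469 CPM. NCL (nucleolin), which binds nascent ribosomal RNA, was at 811 and 831 CPM, and C1QBP, a mainly mitochondrial protein also placed in nucleolar complexes, at 552 and 671 CPM. Next in level were the H/ACA core proteins NHP2 (600.5 and 611 CPM) and NOP10 (397 and 385 CPM), NHP2 being above C1QBP with ETV6-RUNX1 and below it in the control. They were followed by the RNA helicase DDX21 (340.0 and 360 CPM) and the methyltransferase of the box C/D particle, FBL (342 and 347 CPM). The intervals of DDX21 and FBL overlapped with ETV6-RUNX1 (335 to 346 and 336 to 347 CPM).

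Most assembly factors were far lower. Among the 12 genes of the small subunit pathway IMP3, a component of the U3 snoRNP, was highest at 108 and 127 CPM, while RRP12 and HEATR1 were at 12.8 to 14.2 CPM. Measured large subunit factors ran from the helicase DDX18 (229 and 233 CPM) to WDR12 (28.2 and 30.4 CPM). BOP1, which acts with PES1 and WDR12 in the PeBoW complex, had 13 and 11 UMIs in all, 0.296 and 0.257 CPM, where its partner PES1 had 37.4 and 39.9 CPM. The identifier that the files give for BOP1 is not listed in GENCODE 29, so how well this row counts the gene is not known. Of the polymerase I subunits, POLR1D, which also serves RNA polymerase III, was at 270 and 256 CPM, against 24.0 and 25.4 CPM for POLR1C, the other shared subunit, and 12.7 and 12.3 CPM for POLR1A, the catalytic subunit.

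The share of cells with a UMI followed the level. NPM1 had a UMI in every thinned cell of both libraries and NCL in 98.7% and 99.2%. NOP58, which pairs with NOP56 in the box C/D particle, had a UMI in 56.1% and 64.5% of thinned cells (78.6% and 88.0% of unthinned cells). POLR1A had one in 8.87% and 9.34% of thinned cells (20.4% and 23.6% unthinned). No cell type that lacks these genes was found in the libraries, so the share that free RNA gives was not estimated. Reads of some members can be shared with other genes, and the counting rule for them was not given in the sources used here. In GENCODE 29, which lists the identifiers of all members but BOP1, 19 overlapped a listed gene on the opposite strand, and PPAN overlapped the read-through gene PPAN-P2RY11 on its own strand. C1QBP overlapped DHX33, itself a biogenesis helicase, and NPM1 had 45 named pseudogene copies.

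The comparison of the libraries set cells with the fusion construct beside cells with the control construct. With 1 library per group, the fusion cannot be told apart from the line, the culture or the capture. Nearly the whole group was slightly lower with ETV6-RUNX1. Summed, the log2 ratio over control was -0.11 (-0.12 to -0.10), and 38 of the 41 measured members had a log2 ratio below 0, where 63.8% of all measured genes did. For 28 of the 41 the whole interval lay below 0, against 31.9% of measured genes, and for 2 it lay above 0, against 13.0%. Intervals are narrower for genes with more UMIs. Measured genes were not matched to the members on level, here and in the interval counts below. The median was -0.12, beside -0.04 over all 5954 measured genes and -0.11 over 120 other measured ribosome biogenesis genes. These changes were small. None of the 41 reached 1.5-fold in either direction, the size reached by 0.655% of measured genes on the lower and 0.185% on the higher side.

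C1QBP had the lowest ratio of the group, -0.28 (-0.31 to -0.26), and PNO1, an RNA-binding factor of late 40S maturation, followed at 37.8 against 45.8 CPM (-0.28, -0.37 to -0.18). In the small subunit pathway IMP3 stood at -0.24 (-0.30 to -0.18), and the summed ratio of the 12 genes was -0.17 (-0.20 to -0.15), the lowest of the 6 role groups. Among nucleolar proteins GNL3 (nucleostemin) was at 107 against 127 CPM (-0.24, -0.29 to -0.18), while NPM1 was at -0.15 (-0.16 to -0.13) and NCL at -0.03 (-0.06 to -0.01), above 0 under other scalings (below). Large subunit factors had a summed ratio of -0.13 (-0.14 to -0.11), with RRS1 (-0.22, -0.31 to -0.13) and MRTO4 (-0.20, -0.26 to -0.15) furthest from 0. All 12 small subunit genes (-0.28 to -0.04) and all 12 measured large subunit genes (-0.22 to -0.03) were below 0 in the sums over all kept cells. HEATR1 and DDX18 were above 0 under other scalings. In cells called G1 alone, 5 more large or small subunit genes with intervals below 0 over all kept cells were above 0, namely NOP14, RRP1, RRP9, BYSL and TSR1 (0.01 to 0.10), as were RRP12, PES1, PPAN, FTSJ3, HEATR1 and DDX18 (0.00164 to 0.26). PPAN was also above 0 with phases matched (0.02) and in cells of like total UMIs (0.03).

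The snoRNP proteins split. NOP58 was at 118 against 133 CPM (-0.18, -0.24 to -0.13), but its partners were closer to 0, with NOP56 at -0.07 (-0.11 to -0.03) and FBL at -0.02 (-0.06 to 0.01), also above 0 under other scalings. In the H/ACA particle GAR1 (-0.17, -0.24 to -0.10) and the pseudouridine synthase DKC1 (-0.16, -0.21 to -0.10) were lower over all kept cells, NHP2 was at -0.03 (above 0 under other scalings), and NOP10 was higher, at 0.05 (0.02 to 0.08). In cells called G1 alone GAR1 was on the other side of 0, at 0.23, and with phases matched at -0.05, while DKC1 was at -0.35 in G1. The polymerase I subunits were the role group with a summed ratio above 0, 0.06 (0.03 to 0.10), which rested on POLR1D (0.08, 0.04 to 0.12). POLR1A was at 0.04 (-0.13 to 0.22) and POLR1C at -0.08 (-0.21 to 0.04).

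Under 3 other scalings (TMM, median of ratios, and a total that leaves out ribosomal protein and mitochondrial genes) 33 of 41 were below 0, where 50.9%, 51.2% and 49.1% of measured genes were, and NCL, FBL, NHP2, HEATR1 and DDX18 changed sign. These scalings raised every ratio by 0.04 to 0.05. Ribosomal protein genes, the products loaded onto the RNA, had a median of 0.05 over 84 measured genes, on the other side of 0. Of the 120 other biogenesis genes, 105 were below 0 and 1, EXOSC4 of the RNA exosome, was at least 1.5-fold lower (18.8 against 29.6 CPM, -0.66, -0.79 to -0.53). The 40S kinase RIOK2 (-0.52, -0.68 to -0.36), MYBBP1A (-0.35), DIMT1 (-0.28) and the polymerase I subunit gene CD3EAP (-0.27) came next.

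The gap between the libraries narrowed in cells with more total UMIs. For cells of 8000 to below 15000 total UMIs, the group's 7555 and 8460 CPM gave a log2 ratio of -0.16 (-0.19 to -0.14), and cells of 15000 to below 20000 gave -0.16 (-0.18 to -0.15). It was -0.08 (-0.10 to -0.07) from 20000 to below 25000 UMIs and -0.05 (-0.06 to -0.03) from 25000 to below 35000. These ranges were chosen after the libraries' depths were known. With the 4 ranges weighted equally the members' median was -0.13 and 37 of 41 were below 0.

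Across cells the genes varied together. The summed UMIs of the group per thinned cell had a 5th percentile of 36, a median of 63 and a 95th percentile of 96 with ETV6-RUNX1, and of 43, 69 and 100 in the control. Cells of the libraries thus overlapped over most of the range. The coefficient of variation was 28.1% and 24.7%, where Poisson sampling alone gives 12.5% and 12.0%. Of the variance of the sum, 62.7% and 58.6% came from covariance between members, and 65.6% and 59.4% without NPM1 and NCL. The same share for other sets of genes is not given here.

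The r of single pairs was small in counts this sparse. Of 861 pairs, 90.8% and 84.7% had a Pearson r above 0, but the median pair r was 0.05 and 0.04. The share over pairs of other measured genes is not given here, so this count has no background beside it. Against the sum of the other members, the median r of a member was 0.19 and 0.17, while the median r of non-member genes with the group was 0.01 in both libraries. The 95th percentile of non-members was 0.15 and 0.12, and 27 and 28 of the 42 members lay above it. Sparse counts lower r, so r does not rank how tightly genes of unlike level are tied to the rest. The non-members were not matched to the members on level, and the part of level in their lower r was not tested.

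DDX21 had the highest r with the rest, at 0.43 with ETV6-RUNX1 and 0.36 in the control, although 5 members were more abundant in the control. LYAR, a nucleolar zinc finger protein (0.38 and 0.32), and the 60S factor EBNA1BP2 (0.37 and 0.33) came next, level with the far more abundant NPM1 (0.35 and 0.34), and NCL was at 0.34 and 0.30. NOP16, also of the 60S pathway, reached 0.35 and 0.28 at 0.989 and 1.12 UMIs per thinned cell. The highest pairs were NPM1 with EBNA1BP2 (0.25 and 0.28) and NCL with DDX21 (0.28 and 0.22). Pairs within a role group were no closer than pairs across groups, with mean r of 0.06 and 0.06 with ETV6-RUNX1 and 0.04 and 0.05 in the control.

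POLR1D stood apart. It was detected in 87.3% and 86.4% of thinned cells, at 2.13 and 2.07 UMIs per cell, yet its r with the rest was 0.02 and -0.00408. NOP10, at 3.16 UMIs per cell with ETV6-RUNX1, had r of 0.09 and 0.06. NHP2, another H/ACA protein, at 4.78 and 4.91 UMIs per cell, was at 0.23 and 0.17. HEATR1 (0.08 and 0.03) and BOP1 (0.00438 and 0.00222) were also among the lowest but rest on few UMIs.

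Outside the group, chaperones led the 15 genes with the highest r with its sum. Highest were HSP90AB1 (r = 0.58 and 0.51), HSPD1 (0.53 and 0.47) and HSPE1 (0.53 and 0.48). FABP5, a fatty-acid binding protein, PA2G4, a nucleolar growth regulator, the nucleotide kinase NME1 and the translation factor EIF5A followed. The rest were HSP90AA1, LDHA, RAN, EIF4A1, ENO1, SLIRP, CYCS and SSB, with mean r over the libraries down to 0.35. These 15 genes ranged from 281 to 2033 CPM over the libraries, and sparse counts lower r. Genes of low level are therefore less likely to rank high, and non-members were not matched on level. Among the 100 non-member genes with the highest r, 10 were other biogenesis genes, which make up 2.03% of the 5913 non-members, and 0 were ribosomal protein genes, which make up 1.42% and whose median r was -0.12 and -0.09. The 5 lowest were the nuclear RNA MALAT1 (-0.38 and -0.34), HIST1H4C, RPLP1, RPS27 and EEF1A1. Thinned cells have a fixed total, so counts of genes with a large share of UMIs are not independent of the group's. The part of this in the low r was not tested. These values describe likeness across 2085 and 1798 cells and carry no test.

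MYC itself was at 104 CPM with ETV6-RUNX1 and 135 CPM in the control (log2 ratio -0.38, -0.43 to -0.32), a larger gap than for any member. In thinned cells 54.5% and 44.4% had no MYC UMI, 24.4% and 23.5% had 1, 12.3% and 17.4% had 2, and 8.87% and 14.7% had 3 or more. The group's level was higher where MYC was higher. With ETV6-RUNX1 its mean went from 61.4 UMIs per cell at 0 MYC UMIs to 66.2, 67.5 and 68.9 at 1, 2 and 3 or more. In the control the means were 66.5, 71.6, 72.9 and 73.9 UMIs. Most of the step lay between 0 and 1 MYC UMI. Cells with 3 or more MYC UMIs had 1.12-fold (1.10 to 1.15) and 1.11-fold (1.09 to 1.13) the level of cells with 0. In the control the fold was 1.04 at 5000 UMIs per cell and 1.13 in another draw of 8000, so it moved with the sampling by more than its interval. The spread between cells was much wider than this, with 5th and 95th percentiles of 34.0 and 92.0 at 0 MYC UMIs and 42 and 99.8 at 3 or more with ETV6-RUNX1. Across cells the r of MYC with the group was 0.14 and 0.16, which ranked MYC 222nd of 5913 non-member genes, a weak correlation in sparse counts.

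By gene, the ratio of cells with 3 or more over 0 MYC UMIs was above 0 on the log2 scale for 36 and 38 of 41 members, against 51.2% and 54.4% of all measured genes. The whole interval was above 0 for 18 and 24 members, against 6.45% and 6.62% of measured genes. In both libraries together this held for 11 of the 41, namely NPM1, NOP16, GAR1, NOLC1, WDR43, LYAR, PNO1, NOB1, POLR1A, DDX21 and DDX18, against 1.70% of measured genes. Whole intervals below 0 were found for 0 and 1 members (4.40% and 4.48% of measured genes), the 1 being NOP10, and for 0 in both libraries (1.09%). The members' median was 0.17 and 0.28, beside 0.01 and 0.02 over all measured genes and 0.13 and 0.16 over the other biogenesis genes.

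By the mean of the libraries POLR1A had the highest ratio. It was at 0.0819 UMIs per cell at 0 MYC UMIs and 0.141 at 3 or more with ETV6-RUNX1 (log2 0.78, 0.09 to 1.42), and at 0.0801 and 0.144 in the control (0.85, 0.23 to 1.45). At 1 and 2 MYC UMIs it was at 0.112 and 0.0859 and, in the control, at 0.121 and 0.0769, so its path was not even. NOP16 went up in each step, from 0.824 over 1.12 and 1.24 to 1.31 UMIs with ETV6-RUNX1 and from 0.941 over 1.18 to 1.34 at 0, 1 and 3 or more in the control (log2 0.67, 0.46 to 0.87, and 0.51, 0.32 to 0.69). PNO1 (0.46 and 0.57) and GAR1 (0.37 and 0.50) followed, and PES1 was at 0.69 (0.30 to 1.07) with ETV6-RUNX1 but 0.15 (-0.22 to 0.50) in the control. Lowest by the mean of the libraries were EBNA1BP2 (0.02 and 0.03), FBL (-0.04 and -0.03) and NOP10 (-0.10, -0.23 to 0.03, and -0.18, -0.30 to -0.06), while with ETV6-RUNX1 alone FTSJ3 (-0.17, -0.68 to 0.30) and POLR1C (-0.11, -0.71 to 0.44) were lowest. FBL and NOP10 are 2 of the genes with CACGTG near the start. Members with and without CACGTG in the window had median MYC ratios of 0.25 and 0.16 with ETV6-RUNX1 but 0.18 and 0.22 in the control, and median ratios between the libraries of -0.12 and -0.10.

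The lower level with ETV6-RUNX1 was also present between cells with the same number of MYC UMIs. The log2 ratio of the libraries was -0.12 (-0.13 to -0.10) at 0 MYC UMIs, -0.11 (-0.13 to -0.09) at 1, -0.11 (-0.14 to -0.08) at 2 and -0.10 (-0.13 to -0.07) at 3 or more, beside -0.13 (-0.14 to -0.12) over all thinned cells. MYC counts per thinned cell are sparse, so cells with the same count in the 2 libraries need not have the same MYC level. The part of MYC in the gap between the libraries was not tested.

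Between called phases the group as a whole differed little, while single members differed. Phases were called on thinned cells from S and G2/M gene lists that hold no member; 12.0% and 8.95% of cells were called G1, 47.2% and 50.9% S, and 40.7% and 40.1% G2/M. These calls give a comparison only, since 42.5% and 45.5% of cells had a score within 0.05 of the limit. The group stood at 62.3, 65.9 and 62.2 UMIs per thinned cell in G1, S and G2/M with ETV6-RUNX1 and at 68.6, 72.1 and 67.4 in the control. S cells were 1.06-fold (1.04 to 1.08) and 1.05-fold (1.03 to 1.07) G1 cells, and G2/M cells 0.998-fold (0.981 to 1.02) and 0.983-fold (0.963 to 1.00). Without thinning, in UMIs per cell, the group went from 131 over 161 to 186 with ETV6-RUNX1 and from 157 over 197 to 230.0 in the control, alongside the median total, which went from 15503 to 22518 and from 17076 to 25922 UMIs.

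The whole interval of S over G1 lay above 0 for 9 and 8 of 41 members (19.7% and 16.4% of measured genes) and below 0 for 1 and 3 (8.97% and 7.21%). For G2/M over G1 it lay above 0 for 6 and 8 (21.1% and 18.1%) and below 0 for 3 and 3 (8.97% and 6.65%). These shares are near the background. For G2/M over S it lay above 0 for 5 and 3 (13.0% and 12.2%) and below 0 for 7 and 9 (10.5% and 9.42%).

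NPM1 was lower in G2/M. It was at 18.4, 18.9 and 15.9 UMIs per thinned cell in G1, S and G2/M with ETV6-RUNX1 and at 21.1, 20.9 and 17.3 in the control, a log2 ratio of G2/M over S of -0.25 (-0.28 to -0.22) and -0.27 (-0.30 to -0.24). C1QBP (-0.20 and -0.26) and EBNA1BP2 (-0.22 and -0.27) had like ratios of G2/M over S. By the mean of the libraries, the lowest G2/M over G1 ratios were those of NPM1 (-0.21 and -0.29), C1QBP (-0.14 and -0.20) and EBNA1BP2 (-0.03 and -0.30). For NPM1 and C1QBP the interval was below 0 in both libraries. They are 2 of 41 members, a share near the background of 4.22% of measured genes. With ETV6-RUNX1 alone PES1 was lowest (-0.34, -0.70 to 0.03). Without NPM1 and NCL, G2/M cells were 1.04-fold G1 cells in both libraries.

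NOLC1, which chaperones snoRNPs into the nucleolus, was highest in S, at 0.633, 0.896 and 0.701 UMIs per cell in G1, S and G2/M with ETV6-RUNX1 and at 0.758, 0.965 and 0.822 in the control. Its S over G1 ratio, 0.50 and 0.35, was the highest of the group by mean, followed by LYAR (0.38 and 0.45), NOP14 (0.25 and 0.54), NOP58 (0.51 and 0.19) and RRP1 (0.31 and 0.36). Intervals were above 0 in both libraries for 4 members, NCL, FBL, NOLC1 and LYAR, against 11.8% of measured genes, which is also near the background. FBL had the same shape as NOLC1, with S over G1 at 0.30 (0.17 to 0.43) and 0.23 (0.07 to 0.38) and G2/M over S at -0.17 (-0.25 to -0.09) and -0.13 (-0.22 to -0.05). In all, 6 of 41 members (NPM1, FBL, NHP2, NOLC1, EBNA1BP2 and C1QBP) were lower in G2/M than in S with intervals below 0 in both libraries, against 5.63% of measured genes, and 1, DDX21, was higher, against 6.28%.

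LYAR was lowest in G1. It was at 1.15, 1.49 and 1.55 UMIs per cell in G1, S and G2/M with ETV6-RUNX1 and at 1.23, 1.67 and 1.75 in the control (G2/M over G1 0.44, 0.25 to 0.63, and 0.51, 0.29 to 0.73). NCL (0.16 and 0.23) and DDX21 (0.21 and 0.24) also had G2/M over G1 intervals above 0 in both libraries, 3 of 41 members in all against 12.1% of measured genes, a share no higher than the background. NOP10 was the 1 member of 41 whose S over G1 interval lay below 0 in both libraries. That share was no higher than the 4.20% of measured genes. NOP10 was at -0.17 (-0.28 to -0.06) and -0.14 (-0.28 to -0.00447). POLR1A (-0.20 and -0.43) was lower still, with intervals that held 0, and NOB1 was at -0.30 (-0.58 to -0.01) in the control, with an interval that held 0 with ETV6-RUNX1. By the mean of the libraries, the G2/M over G1 ratios of NOP14 (0.17 and 0.69), RRP12 (0.56 and 0.29), NOP58 (0.57 and 0.18) and RRP1 (0.23 and 0.49) ranked directly after LYAR, and in each the interval held 0 in at least 1 library. Single libraries gave other orders, as for HEATR1 (-0.27 and 0.91) and GAR1 (-0.14 and 0.61).

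Within each called phase the group's summed level was lower with ETV6-RUNX1. The summed log2 ratio was -0.12 (-0.14 to -0.09) in G1, -0.12 (-0.13 to -0.11) in S and -0.09 (-0.10 to -0.08) in G2/M. The number of the 41 members below 0 was 26 in G1, where 55.7% of measured genes were, 37 in S (60.7%) and 38 in G2/M (63.4%). The G1 count was near its background. Much of the G1 gap in thinned cells (62.3 against 68.6 UMIs) lay in NPM1 (18.4 against 21.1) and C1QBP (4.35 against 5.53). The step with MYC UMIs had these sizes by phase, whose difference was not tested. Cells with 3 or more over 0 MYC UMIs had log2 ratios of 0.01 (-0.06 to 0.08) and 0.01 (-0.07 to 0.08) in G1, of 0.16 and 0.15 in S, and of 0.25 (0.21 to 0.30) and 0.19 (0.15 to 0.23) in G2/M. The G1 values rest on 34 and 33 cells with 3 or more MYC UMIs. Mean MYC was highest in G1 in both libraries. It was at 1.05, 0.757 and 0.808 UMIs per thinned cell in G1, S and G2/M with ETV6-RUNX1 and 1.29, 1.15 and 1.05 in the control.

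The group's share of UMIs was larger in cells with more total UMIs. With kept cells ranked on total UMIs and cut into 4 equal bins, the group was at 7491, 7680, 8139 and 8549 CPM with ETV6-RUNX1 and at 8575, 8640, 8660 and 9004 CPM in the control. The highest over the lowest bin was 1.14-fold (1.13 to 1.15) and 1.05-fold (1.04 to 1.06). The whole interval lay above 0 for 24 and 13 of 41 members, against 21.5% and 16.3% of measured genes, and in both libraries for 12, against 11.1%. It lay below 0 for 1 and 3 members, against 15.8% and 15.3%, and for 0 in both libraries, against 8.28%. RRP1, a 60S factor, led at log2 ratios of 0.66 (0.43 to 0.89) and 0.43 (0.22 to 0.64), with PPAN at 0.45 and 0.47 and NOB1, the nuclease that makes the end of 18S ribosomal RNA, at 0.51 and 0.34. With ETV6-RUNX1 the 1 interval below 0 was that of POLR1D (-0.10, -0.18 to -0.02), which was at -0.05 (-0.13 to 0.03) in the control. NCL stood at -0.03 (-0.08 to 0.02) in that library. The control had NCL at -0.19 (-0.24 to -0.14), and there NOLC1 (-0.18, -0.30 to -0.05) and IMP3 (-0.14, -0.26 to -0.02) also had intervals below 0. Of cells with a phase call, those called G1 made up 24.2% and 20.7% in the lowest and 5.30% and 2.36% in the highest bin; their part in these ratios was not tested. In the lowest bin 385 of 567 and 396 of 468 cells had a call, the others having under 8000 UMIs.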

How the data were processed

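Single-cell messenger RNA was measured in 2 libraries. Values in the deposited matrices are UMI counts for each gene and barcode, not normalized, made with Cell Ranger 3.0.2 on hg19 per the submitters' processing notes. The gene annotation, cell calling and the treatment of shared reads are not given in the sources used here. Dead cells were depleted with beads before capture, per the labels' protocols, and the labels gave the groups.

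UMIs of kept cells were summed per library and scaled to CPM. Ratios were computed for all genes with exact intervals that condition on the summed count; the floor of 10 CPM equals 440 and 428 UMIs. Intervals leave out the spread between cells and between cultures, so they are too narrow. Levels have exact Poisson intervals and shares exact binomial (Clopper-Pearson) ones. For measures across cells, 8000 UMIs per cell were drawn without replacement, leaving out 182 and 72 shallower cells. Phases were called with scanpy 1.11.5 (S or G2/M score above 0, otherwise G1). Doublets were left in; Scrublet (expected rate 0.05) called 14 and 16 kept cells, 0.618% and 0.856%. TMM factors came from edgeR 4.0.16. Computations were tested on simulated data.

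The members and lists were chosen with earlier results of these data known. All members are accounted for. Those given in full were, in each role group, the highest in level and the 2 with the largest absolute log2 ratio, and the extremes of correlation, MYC ratio and phase ratio; others served to complete a complex or a contrast. Non-members named are the 15 highest and 5 lowest in correlation with the group and the 5 other biogenesis genes with the largest absolute ratio. Sequences are from RefSeq (GRCh38.p14), and no coordinates were converted between builds. Alternatives were other scalings, cell filters, thinning, phases, doublets, floors and sizes.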

Additional observations from a re-analysis of the deposited data

Results flagged for a closer look

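With 1 library per group no group was large enough to look for an outlying sample. The members listed here had intervals on opposite sides of 0 in the libraries, and the difference between the libraries was not tested. The log2 ratio of S over G1 for DKC1 with ETV6-RUNX1 was 0.24 (0.02 to 0.46), while the control had -0.27 (-0.49 to -0.04), a difference of 0.51. DKC1 stood at 0.833 and 0.984 UMIs per thinned cell in G1 and S with ETV6-RUNX1 and at 1.255 and 1.04 in the control. IMP3 had a log2 ratio of G2/M over S with ETV6-RUNX1 of 0.19 (0.05 to 0.34), while the control had -0.22 (-0.36 to -0.08), a difference of 0.41. Between the highest and the lowest of 4 bins of cells by total UMIs, IMP3 was at 0.28 (0.14 to 0.42) and -0.14 (-0.26 to -0.02), a difference of 0.42. They are 2 of 41 measured members over 5 such comparisons, and the intervals cover counting error only. The share of all measured genes with intervals on opposite sides of 0 is not given here, so this count has no background beside it.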

How the results depend on the processing

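The cells of like total UMIs were an alternative chosen after seeing the data; the others were planned. No paired analysis was possible because each group has 1 library. The members' median log2 ratio of -0.12 was -0.0797 with TMM, -0.0799 with median-of-ratios scaling, -0.0735 after leaving ribosomal protein and mitochondrial genes out of the totals, and -0.0833 in cells called G1 only. The scalings shift every gene alike, by 0.04 to 0.05. The number of members past 1.5-fold was 0 under each setting tried. Of 419 single-member ratios under alternatives, 75 left the reported interval, and 12 of these were sign changes of members whose whole interval had lain on 1 side of 0. With TMM, median-of-ratios and the changed totals, NCL was at 0.00461, 0.00438 and 0.0108 and NHP2 at 0.0134, 0.0132 and 0.0196. In cells called G1 only, NOP14 was at 0.0455, GAR1 at 0.230, RRP1 at 0.0224, RRP9 at 0.00725, BYSL at 0.104 and TSR1 at 0.0290. The covariance share was 56.7% and 53.1% in cells thinned to 5000 UMIs, and 65.6% without NPM1 and NCL with ETV6-RUNX1. The MYC fold (3 or more over 0) was 1.09 and 1.09 for 1 or more over 0, 1.01 and 1.01 in G1 only, and 1.19 and 1.14 in G2/M only. In the control it was 1.04 at 5000 UMIs and 1.13 in another draw of the thinning. In unthinned UMIs per cell, S over G1 was 1.22 and 1.254 and G2/M over G1 1.42 and 1.46. Without cells near the score limit, S over G1 was 1.10 in the control and G2/M over G1 was 0.977 and 1.02. G2/M over G1 was 1.04 and 1.04 without NPM1 and NCL. After the same change of totals (no ribosomal protein or mitochondrial UMIs), the highest over the lowest bin of total UMIs was 1.11 and 1.03. For these moves the cause was not tested, other than the fewer UMIs at 5000 and the scaling itself. The depth limits single members: POLR1A, HEATR1 and RRP12 had 557 to 580 UMIs with ETV6-RUNX1.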

Other observations

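The barcodes left out by the cell filter, 236 with ETV6-RUNX1 and 333 in the control, held the group at 4147 (3942 to 4360) and 4713 (4534 to 4898) CPM, a log2 ratio over kept cells of -0.97 and -0.90. Between these barcodes of the libraries the log2 ratio was -0.18 (-0.28 to -0.09).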
